A study of Mus musculus with 8 samples.

Results

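The carboxylesterase 1 cluster is described here across genotype and diet in mouse liver. The members are the 6 genes listed by symbol as Ces1b, Ces1c, Ces1d, Ces1e, Ces1f and Ces1g, which were 6 of the 22923 symbols in each deposited file, and all 6 had a value above 0 in all 4 groups. The members were chosen by name, with earlier results of these data known, and not by a cut on their values. The groups were Xbp1-/- livers (KO) on a high-fat diet, KO livers on regular chow, Xbp1flox control livers (Flox) on the high-fat diet and Flox livers on chow, all from C57BL/6 mice. Xbp1 was deleted in the liver only, by a driver not given in the sources used here, and the age and sex of the mice are not given there either. The high-fat diet, to which a high-fructose corn syrup equivalent was added, lasted 4 weeks. Each cohort of 4 mice was pooled into 2 libraries. The files hold 1 value per gene and group, in RPKM (mapped reads corrected for transcript length and library size), so the spread between libraries is unknown, no test was possible, and no difference below has a replicate check.

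Carboxylesterases of family 1 are serine hydrolases that cleave ester bonds in drugs and in lipids, and hepatocytes make them in large amounts on ribosomes of the endoplasmic reticulum (ER). IRE1, the stress sensor of the ER membrane, carries an RNase that splices the messenger RNA of Xbp1, and the same RNase cuts other messenger RNAs at the ER surface, a process called regulated IRE1-dependent decay. In mouse liver without XBP1, IRE1 is known to be overactive, and Ces1 messengers were among the decay substrates named in earlier work on such livers. The direction of the Ces1 genes in the knockout is therefore not independent of what was already known of this model.

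The targeted gene was lower in both KO groups. Xbp1 stood at 34.1 RPKM in KO high-fat livers against 90.7 RPKM in Flox high-fat livers (37.6%) and at 44.2 RPKM in KO chow livers against 112 RPKM in Flox chow livers (39.6%), on values that include any exon left after deletion and liver cells that are not hepatocytes. Ern1, the gene of IRE1, stood at 6.10 RPKM in KO high-fat, 4.69 in KO chow, 5.39 in Flox high-fat and 3.86 in Flox chow livers. All the deposited values together summed to between 367414 RPKM (KO high fat) and 513694 RPKM (Flox chow), and between 9713 and 10055 genes reached 1 RPKM. A 0 can be a failed estimate in these files, since albumin (Alb) was itself at 0 in every group.

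The 8 Ces1 genes lie side by side on mouse chromosome 8 (mm10), all on the minus strand, in a block of 360 kb from 93020214 to 93379725, by GENCODE M21. The order along the chromosome is Ces1a to Ces1h, with 2 unprocessed pseudogenes between them. Ces1c spans 93099015 to 93131283, Ces1d 93166068 to 93197838, Ces1e 93201218 to 93229619 and Ces1g 93302369 to 93337308, while Ces1b (93056728 to 93080017) and Ces1f (93256236 to 93279747) complete the set described here. Ces1h was not found by its symbol or a listed synonym among the deposited values, and the level of Ces1a stayed between 0.0401 and 0.103 RPKM in the 4 groups. The 6 members have 13 or 14 exons and coding sequences of 1662 to 1701 bases.

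The copies are alike but not identical. Over 15 pairs, coding sequences matched at 73.7% to 90.9% of aligned bases, with a median of 78.4% and the highest value between Ces1b and Ces1c. The read length is not given in the sources used here, so the overlap was gauged with words of 50 bases. Of the words in the Ces1b and Ces1c transcripts, 38.7% and 46.5% occurred with at most 2 mismatches in a transcript of another carboxylesterase gene or of the 2 pseudogenes. For Ces1d, Ces1e, Ces1f and Ces1g these shares were 10.6%, 14.1%, 8.15% and 10.2%. Values of Ces1b, the weakest member, are therefore uncertain in particular, because Ces1c, the strongest, could share reads with it; the other 4 are uncertain to a lesser degree.

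IRE1 is known to cut in the Xbp1 messenger within small hairpin loops of the form CNGCAGN, and CTGCAG is the core most often named for other substrates. The 2 loops in the Xbp1 coding sequence, printed first for reference with the loop in capitals, came out of a search for CNGCAGN between runs of 4 bases that can pair, G with T included. No such hairpin was found in the coding sequence of any of the 6 Ces1 members, and it was present in 9.43% of 2047 mouse coding sequences of 1495 to 1871 bases. The core CTGCAG alone, on the coding strand, occurred in all 6 members, and in 81.2% of those 2047 sequences, so holding it does not set the cluster apart. In all 6 members 1 copy lay at the same place, in exon 2, within 30 bases that had no mismatch between Ces1c, Ces1d, Ces1e and Ces1f and 1 mismatch (C9G, counted from 1 at the 5′ end of the printed Ces1c window) in Ces1b and Ces1g. For other carboxylesterases the window was the 30 bases with the fewest mismatches to Ces1c, without gaps, anywhere in the coding sequence. That of Ces1a differed from Ces1c within the core by A17C and that of Ces1h by G15C. None of the 13 other coding sequences compared held CTGCAG in this window, although all of them but Ces5a held it elsewhere. Outside the Ces1 genes the windows had 10 to 12 mismatches, and that of Ces5a lay at coding bases 766 to 795. Those windows may therefore not be the same place in the gene. The windows are shown because the 6 members share the core in them and the closest windows of the rest of the family do not hold it. Capitals mark the 6 bases at the place of the core in each window, and a match in letters is no evidence of a cut. The Ces1c window lies on mm10 at chr8:93130726-93130755 and that of Ces1g at chr8:93335051-93335080, both on the minus strand.
Xbp1, loop 1: gtctgctgagtCCGCAGCactcagactat
Xbp1, loop 2: tatgtgcacctCTGCAGCaggtgcaggcc
Ces1c, also Ces1d, Ces1e and Ces1f: ctccaccacagcCTGCAGagccctggagct
Ces1b, also Ces1g: ctccaccagagcCTGCAGagccctggagct
Ces1a: ctccaccacagcCTGCCGagacctggagct
Ces1h: ctccaccacagcCTCCAGagccctggagct
Ces3a: cagctccactccCACCACagccctgggaag
Ces2a: cacctcctgaggACCCTGagccatggagtg

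On both diets all 6 Ces1 genes were several times lower in KO than in Flox livers. Changes below are log2((a + 1)/(b + 1)), where a and b are the RPKM of the groups compared and 1 RPKM is a pseudocount, and a gene is said to have risen or fallen when this log2 change was at least 1 in size, a 2-fold change. On the high-fat diet 6 of 6 members fell, against 1.86% of 10327 genes, with a median log2 change of -2.39 beside -0.13 for all genes. On chow 6 of 6 fell too, against 1.37% of 10322 genes, with a median of -3.20 beside -0.02 for all genes. Added up, the 6 values came to 272 RPKM in KO high-fat livers against 1557 RPKM in Flox high-fat livers, or 17.4% (log2 change -2.52), and to 205 RPKM in KO chow livers against 1807 RPKM in Flox chow livers, or 11.3% (log2 change -3.13).

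Ces1c encodes the carboxylesterase that mouse liver secretes into plasma, and it was the most abundant member in every group. High-fat livers had 159 RPKM of Ces1c in KO and 900.1 RPKM in Flox, so that KO was at 17.7% (log2 change -2.49). In chow livers it was 114 RPKM in KO and 1115 RPKM in Flox, with KO at 10.2% (log2 change -3.28). Both KO values lay far below both Flox values. By level, Ces1c ranked 578th of all genes in KO chow livers and 59th in Flox chow livers.

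Ces1d encodes triacylglycerol hydrolase, an enzyme of the ER lumen that mobilises stored triglyceride for lipoprotein assembly. Its level was 42.6 RPKM in KO high-fat livers against 299 RPKM in Flox high-fat livers, or 14.2% (log2 change -2.78), and 30.3 RPKM in KO chow livers against 271 RPKM in Flox chow livers, or 11.2% (log2 change -3.12). In Flox livers it was the 1 member with a higher value on the high-fat diet than on chow. Ces1f, a lipid hydrolase also known as TGH-2, was at 43.2 RPKM in KO high-fat against 215 RPKM in Flox high-fat livers (20.1%, log2 change -2.29) and at 42.9 RPKM in KO chow against 246 RPKM in Flox chow livers (17.4%, log2 change -2.49). Ces1f was above Ces1d in both KO groups and below it in both Flox groups, although in KO high-fat livers the ratio of Ces1f to Ces1d was only 1.01.

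Ces1e encodes egasyn, the protein known to hold beta-glucuronidase in the ER of mouse liver. Its value in high-fat livers was 7.63 RPKM in KO and 60.0 RPKM in Flox, with KO at 12.7% (log2 change -2.82). In chow livers it was 5.88 RPKM in KO and 66.5 RPKM in Flox, with KO at 8.84% (log2 change -3.29). Gusb, the gene of beta-glucuronidase itself, did not pass the threshold: it stood at 8.61 RPKM in KO high-fat, 8.95 in KO chow, 10.4 in Flox high-fat and 9.10 in Flox chow livers.

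Ces1g, another hydrolase of lipid esters, was at 15.3 RPKM in KO high-fat livers against 70.3 RPKM in Flox high-fat livers, or 21.8% (log2 change -2.13). On chow it was at 7.56 RPKM in KO livers against 84.1 RPKM in Flox livers, or 9.0% (log2 change -3.31). Ces1b had the lowest level of the 6 in every group and the smallest change on both diets. It was at 3.93 RPKM in KO high-fat against 13.2 RPKM in Flox high-fat livers (29.9%, log2 change -1.52) and at 4.42 RPKM in KO chow against 24.3 RPKM in Flox chow livers (18.2%, log2 change -2.22).

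**Figure D1:**
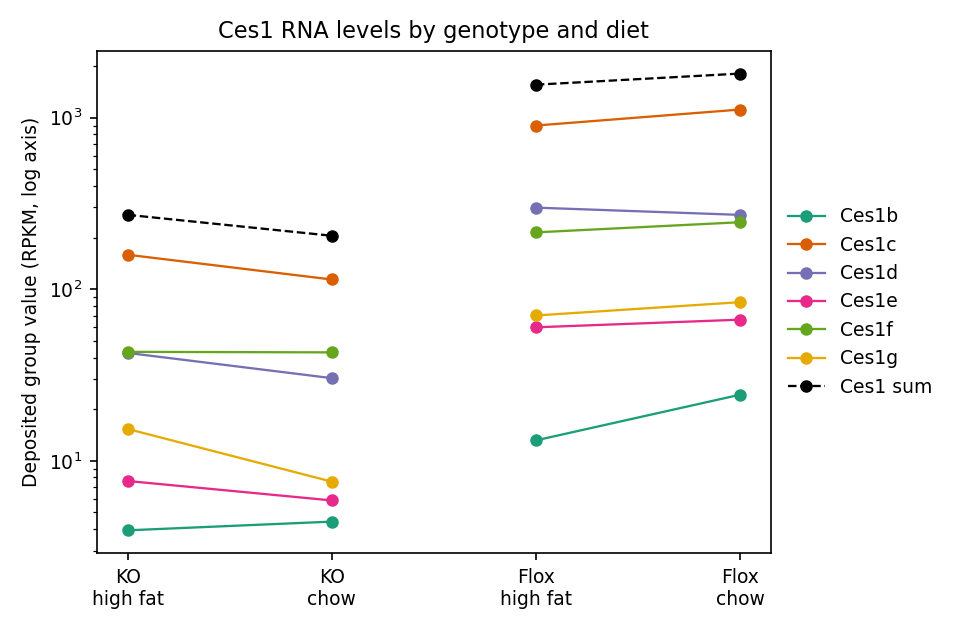
Deposited group values in RPKM on a log axis for the 6 Ces1 genes and their sum, with 1 pooled value per gene and group and lines joining the diets of 1 genotype. Every KO value lies below both Flox values of the same gene, and the sum is 272 and 205 RPKM in KO livers on high fat and chow against 1557 and 1807 RPKM in Flox livers.

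The gap between KO and Flox livers was smaller on high fat than on chow for each of the 6 members. The difference between these log2 changes (high fat minus chow) was 1.19 for Ces1g, 0.78 for Ces1c, 0.70 for Ces1b, 0.47 for Ces1e, 0.34 for Ces1d and 0.21 for Ces1f, and 0.62 for the sum (0.38 for the sum without Ces1c). The median of this difference was 0.40 over 14 XBP1 target genes of the ER and 0.35 over 13 reported IRE1 decay substrates outside the cluster. A positive value was thus not particular to the Ces1 genes, though the median of 9 other carboxylesterases was -0.45. Over 10319 genes the difference had a median of -0.10, and 32.1% of them had a positive value. Only Ces1g among the 6 passed 2-fold in it, which 0.659% of all genes did in that direction, and with a pseudocount of 5 RPKM its value was 0.94 and no longer past the threshold.

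In the ordering of all genes by log2 change on high fat, the members held ranks 4 (Ces1e), 5 (Ces1d), 7 (Ces1c), 11 (Ces1f), 16 (Ces1g) and 50 (Ces1b) from the lowest. On chow they held ranks 1 (Ces1g), 2 (Ces1e), 3 (Ces1c), 4 (Ces1d), 11 (Ces1f) and 18 (Ces1b). The order among the members on chow depends on the pseudocount: with 0.1 RPKM the log2 change was -3.48 for Ces1e, -3.46 for Ces1g and -3.29 for Ces1c, and with 5 RPKM it was -2.72 for Ces1e, -2.83 for Ces1g and -3.24 for Ces1c. The comparisons on high fat and on chow share no group.

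**Figure D2:**
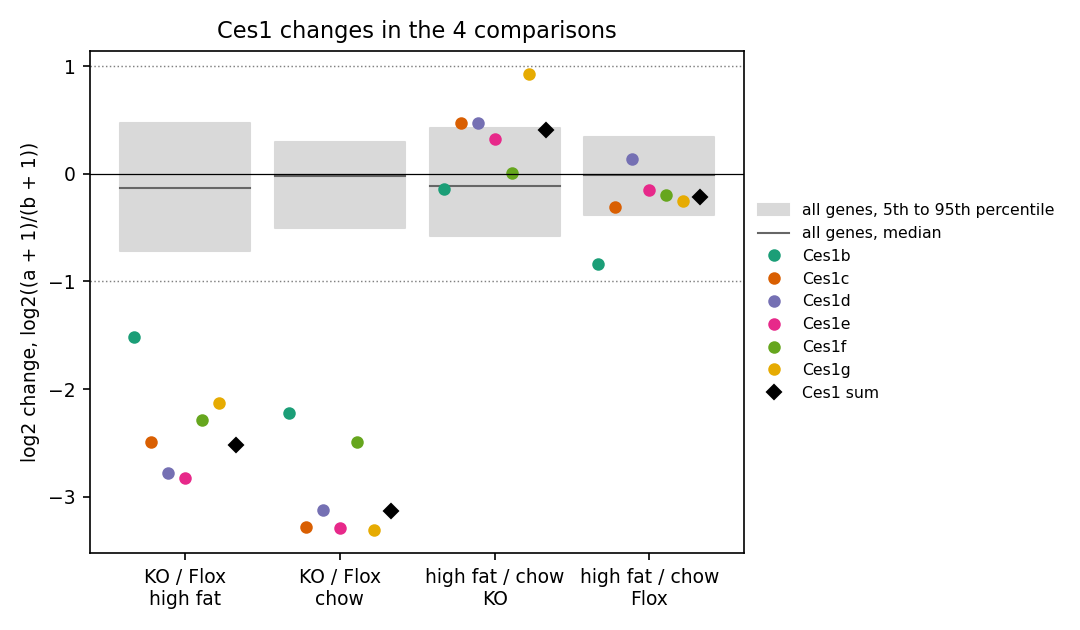
The log2 change of each Ces1 gene (circles) and of their sum (diamonds) in KO against Flox on each diet and in high fat against chow in each genotype, over the 5th to 95th percentile of all genes (grey). All members lie below -1 in both KO against Flox comparisons, and none passes 1 in size in the diet comparisons.

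The Ces1 genes differed less between diets than between genotypes, and none of the 6 passed 2-fold in either genotype, where 1.46% of genes did in KO and 0.639% in Flox livers. In KO livers the sum was 272 RPKM on high fat against 205 RPKM on chow (log2 change 0.40), and in Flox livers 1557 RPKM on high fat against 1807 RPKM on chow (log2 change -0.21). The sizes of these differences depend on the scaling and on Ces1c. With equal sums without the 50 most abundant genes the log2 change of the sum was 0.69 in KO and -0.08 in Flox livers, and without Ces1c in the sum it was 0.30 in KO and -0.07 in Flox livers. Per member, the log2 change with high fat in KO livers was 0.93 for Ces1g, 0.48 for Ces1c, 0.48 for Ces1d, 0.33 for Ces1e, 0.01 for Ces1f and -0.14 for Ces1b, beside a median of -0.11 over all genes. In Flox livers it was 0.14 for Ces1d, -0.15 for Ces1e, -0.20 for Ces1f, -0.25 for Ces1g, -0.31 for Ces1c and -0.84 for Ces1b, beside -0.01 over all genes. Ces1c, Ces1e, Ces1f and Ces1g thus had a higher value on high fat in KO livers and a lower one in Flox livers, a pattern that 8.51% of 10319 genes showed; Ces1d was higher on high fat in both genotypes and Ces1b lower in both. Scaling the files to a median log2 ratio of 0 was done over genes of at least 10 RPKM in every group. The median of all genes moved by 0.24, to 0.13 in the KO diet comparison and 0.11 in KO against Flox on high fat. With this scaling the Ces1g change in KO livers became 1.20, past 2-fold, and that of Ces1b 0.10 in place of -0.14.

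The make-up of the Ces1 sum was much the same in the 4 groups. Ces1c held 58.5% of the summed RPKM in KO high-fat, 55.6% in KO chow, 57.8% in Flox high-fat and 61.7% in Flox chow livers. Ces1f was the member whose share differed most on chow, at 20.9% in KO and 13.6% in Flox livers. Ces1d held between 14.8% and 19.2%, Ces1g between 3.69% and 5.65%, Ces1e between 2.81% and 3.85%, and Ces1b between 0.845% and 2.16%. Set against the RPKM of all genes, the cluster made up 0.0739% in KO high-fat, 0.0444% in KO chow, 0.337% in Flox high-fat and 0.352% in Flox chow livers.

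**Figure D3:**
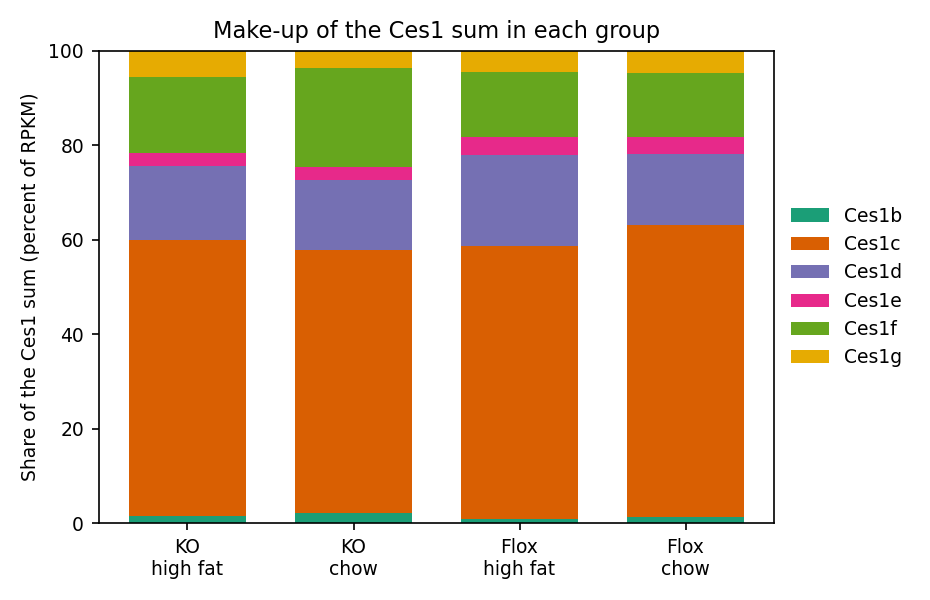
Share of each Ces1 gene in the summed RPKM of the 6 genes, in percent, for the 4 groups (1 pooled value each). Ces1c holds between 55.6% and 61.7% in all groups, and Ces1f is 20.9% in KO chow against 13.6% in Flox chow livers.

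Most other carboxylesterase genes had smaller changes between the genotypes. Of 14 listed genes, 12 were in the files and 9 passed the filter of 1 RPKM in at least 1 group. On the high-fat diet 3 of the 9 fell and 0 rose (median log2 change -0.22), and on chow 1 fell and 0 rose (median -0.39). The shares of all genes that fell were 1.86% on high fat and 1.37% on chow. Ces3a, the most abundant, was at 726 RPKM in KO high-fat against 1183 RPKM in Flox high-fat livers (log2 change -0.70) and at 1114 RPKM in KO chow against 1241 RPKM in Flox chow livers (-0.16). Ces2a fell on both diets, at 16.8 RPKM in KO high-fat against 116 RPKM in Flox high-fat livers (log2 change -2.72) and at 60.5 RPKM in KO chow against 155 RPKM in Flox chow livers (-1.34). Ces3b (-1.75) and Ces4a (-1.03) fell on high fat and were at -0.91 and -0.59 on chow. Ces4a was near the floor and passed the filter only through Flox livers. It was at 0.352 RPKM in KO high-fat, 0.993 in KO chow, 1.77 in Flox high-fat and 1.99 in Flox chow livers. Ces2b passed only through KO chow (1.22 RPKM), and with Flox values of 0.473 and 0.659 RPKM it could not have fallen past 2-fold. The 6 Ces1 genes were also set against the RPKM of all carboxylesterases found, which leaves out Ces1h and Ces2h. They made up 22.5% in KO high-fat, 12.5% in KO chow, 49.1% in Flox high-fat and 50.7% in Flox chow livers.

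Among 13 reported IRE1 decay substrates outside the cluster, 6 fell and 1 rose on the high-fat diet (median log2 change -0.70), and 8 fell and 0 rose on chow (median -1.20). Over all genes 1.86% fell and 111 of 10327 rose on high fat, and 1.37% fell on chow. Several members of that list were named in work on Xbp1-deficient liver, so their direction is not independent evidence. Dgat2, which completes triglycerides from diglycerides, was at 46.8 RPKM in KO high-fat against 238 RPKM in Flox high-fat livers (log2 change -2.32) and at 37.3 RPKM in KO chow against 239 RPKM in Flox chow livers (-2.65). Bloc1s1, a substrate known from many cell types, fell as well (-1.96 on high fat and -2.00 on chow). Hgsnat, a lysosomal membrane enzyme, fell on both diets (-1.37 and -1.77), and so did Cyp2e1, a cytochrome P450 (-1.63 and -1.20). The gene that rose on high fat was Scara3 (1.23), named after its value was seen. It was at 2.51 RPKM in KO high-fat, 0.919 in KO chow, 0.494 in Flox high-fat and 0.395 in Flox chow livers. Scara3 thus passed the filter only through the group in which it rose.

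Of 14 XBP1 target genes of the ER, 4 fell on high fat (median -0.82) and 12 fell on chow (median -1.16), with 0 rising. Over all genes 1.86% fell on high fat (median -0.13) and 1.37% on chow (median -0.02). Erp44 (-1.24 on high fat, -1.69 on chow), P4hb (-1.37 and -1.60), Hyou1 (-0.85 and -1.53) and Dnajb9 (-1.29 and -1.46), which encode folding factors of the ER, had smaller changes than every Ces1 member on both diets.

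**Figure D4:**
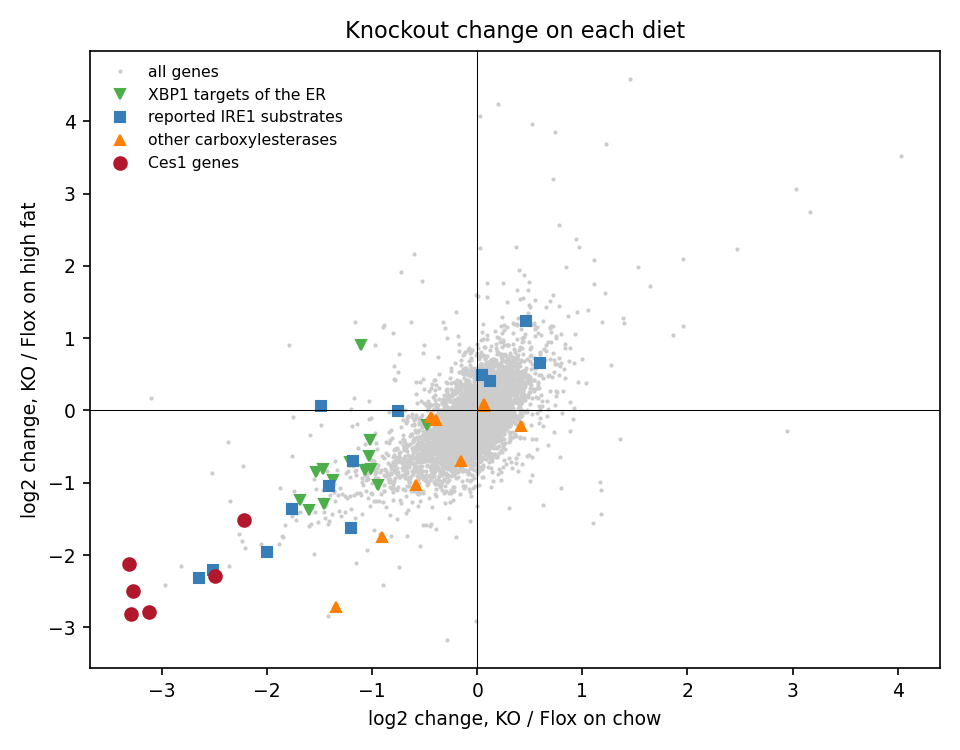
The log2 change in KO against Flox on chow (horizontal) and on high fat (vertical) for all genes past the filter (grey), the Ces1 genes, other carboxylesterases, reported IRE1 substrates and XBP1 targets of the ER. The Ces1 genes lie at the lower left, between -2.82 and -1.52 on high fat and between -3.31 and -2.22 on chow.

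Among the 8 genes whose 4 group values were most like those of the Ces1 sum were 2210411K11Rik, Dgat2, Retsat, Hc, Itih4, Fam134c and Bloc1s1, from the most to the least alike. Likeness was the Euclidean distance between log2(RPKM + 1) values over the 4 groups, each gene centred on its own mean, among 6071 genes outside the carboxylesterases. The distances of the 8 ran from 0.37 for 2210411K11Rik to 0.90 for Bloc1s1, beside a median of 2.74 over the candidates. The members themselves lay at 0.10 (Ces1c) to 1.12 (Ces1b) from their sum. Retsat, retinol saturase, was at 27.5 RPKM in KO high-fat against 152 RPKM in Flox high-fat livers and at 15.6 RPKM in KO chow against 129 RPKM in Flox chow livers. Hc, the gene of complement component C5, was at 37.1 RPKM in KO high-fat against 168 RPKM in Flox high-fat livers and at 27.6 RPKM in KO chow against 146 RPKM in Flox chow livers.

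Genes that work beside the Ces1 enzymes in lipid handling had smaller changes. Of 12 other neutral lipid hydrolases and cofactors, 11 passed the filter; 1 fell on high fat (median log2 change -0.24), and 0 passed 2-fold on chow (median -0.20). The gene that fell was Lipc, hepatic lipase, at 28.3 RPKM in KO high-fat against 67.9 RPKM in Flox high-fat livers (log2 change -1.23). Aadac, a hydrolase of the ER lumen, was at -0.58 on high fat and -0.22 on chow, and Pnpla2, the lipase of cytosolic lipid droplets, at 0.06 and 0.29. Of 10 genes of VLDL assembly and export, 0 passed 2-fold on either diet (medians -0.50 on high fat and -0.28 on chow). The furthest from 0 were Pla2g12b (-0.98 and -0.65) and Apob, the structural protein of VLDL (-0.80 and -0.59). Over all genes, 303 of 10327 passed 2-fold on high fat and 167 of 10322 on chow. A count of 0 in lists this small is near that share.

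None of 9 nuclear receptors and factors reported upstream of Ces1 genes passed 2-fold in KO against Flox livers on either diet (medians -0.43 on high fat and -0.13 on chow). Over all genes, 303 of 10327 passed on high fat and 167 of 10322 on chow, so 0 of 9 is near that share. Nr1i3, the xenobiotic receptor CAR, was at -0.61 on high fat and -0.18 on chow, Ppara, the fatty acid receptor, at -0.57 and -0.19, and Nr1h3, the oxysterol receptor LXR alpha, at -0.45 and -0.23. Nfe2l2, the gene of NRF2, was at 0.27 and 0.43.

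No gene that passed the filter around the Ces1 block fell, where 1.86% of all genes fell on high fat and 1.37% on chow. In so small a set a count of 0 is near that share. Of 12 listed genes near the cluster, 6 passed the filter, and 0 of them passed 2-fold on either diet (medians 0.10 on high fat and 0.01 on chow). Mmp2, a matrix protease gene, was at 0.85 on high fat and 0.50 on chow, and Nup93, a gene of the nuclear pore, at 0.28 and 0.27. Within 1200 kb of the block on either side, 12 genes outside it passed the filter and 0 of them fell. The metallothionein genes Mt2 (1.99 on high fat and 1.52 on chow) and Mt1 (1.51 and 0.69), named after their values were seen, were the ones past 2-fold.

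**Figure D5:**
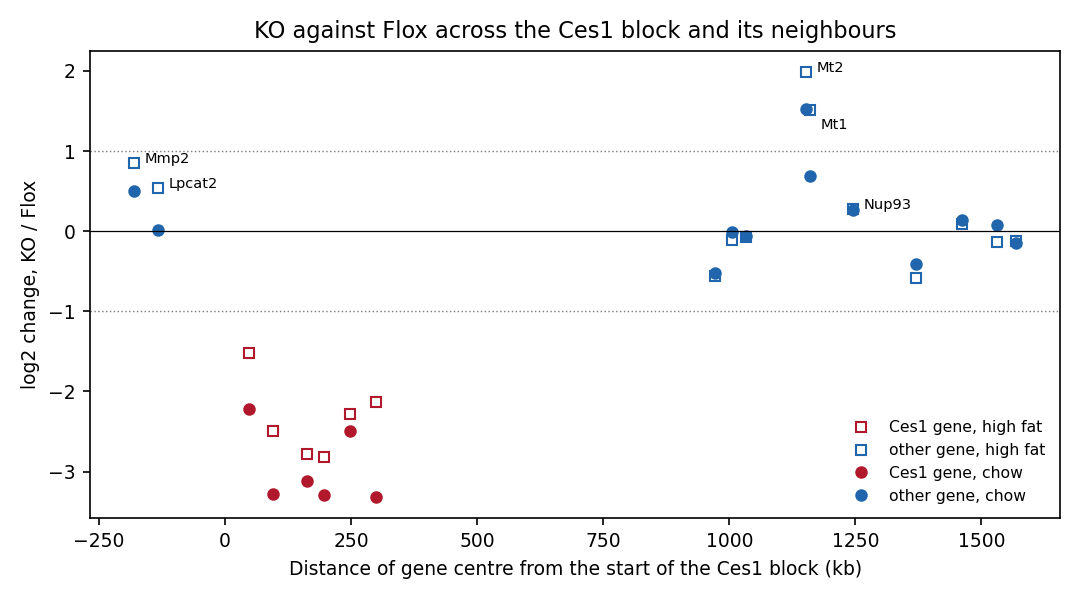
The log2 change in KO against Flox on high fat (open) and on chow (filled) for genes that passed the filter of 1 RPKM, by distance of the gene's centre from the start of the Ces1 block in kb. The 6 Ces1 genes lie between -3.31 and -1.52, and no other gene within the window lies below -0.59.

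Upstream sequences were at hand for 4 of the 6 members in RefSeq (GRCm38.p6), without Ces1d and Ces1f. Ces1b has 2 starts there. Over the 250 bases before the start, Ces1b from the start printed here and Ces1c matched at 90.6% of aligned bases and shared a run of 58. The window of the other Ces1b start begins further upstream and overlaps the printed one over 173 bases. It shared the same run of 58 with Ces1c, but the match over aligned bases was 57.9%. By comparison, Ces1c and Ces1g matched at 61.7% and shared no run longer than 8. Known binding elements of XBP1 hold ACGT or CCACG, and neither was found on either strand in the upstream sequence of any of the 4 genes, while 26.9% and 28.3% of 32851 promoters of that length hold them; CCACGT holds both. CCAAT, on either strand, was found before the printed Ces1b start, but not before the other one, and in Ces1c and Ces1g, and in 33.8% of all. The absence of these letters from this window says nothing more about the factor. The 3 sequences are shown as a pair alike upstream (Ces1b and Ces1c) and a member less like either (Ces1g). Whether upstream sequence bears on the change in KO livers was not tested. Capitals mark CCAAT or its reverse complement, and all are written 5′ to 3′ on the minus strand of chr8. They lie at chr8:93079941-93080190 for Ces1b, chr8:93131284-93131533 for Ces1c and chr8:93337210-93337459 for Ces1g. GENCODE M21 places the start of Ces1b at 93080017 and that of Ces1g at 93337308, so their printed windows reach into the genes as annotated there.
Ces1b: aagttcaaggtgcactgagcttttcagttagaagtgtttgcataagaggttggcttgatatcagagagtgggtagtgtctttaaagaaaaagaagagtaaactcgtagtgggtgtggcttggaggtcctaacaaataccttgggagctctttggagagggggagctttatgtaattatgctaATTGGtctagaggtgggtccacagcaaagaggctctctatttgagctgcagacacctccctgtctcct
Ces1c: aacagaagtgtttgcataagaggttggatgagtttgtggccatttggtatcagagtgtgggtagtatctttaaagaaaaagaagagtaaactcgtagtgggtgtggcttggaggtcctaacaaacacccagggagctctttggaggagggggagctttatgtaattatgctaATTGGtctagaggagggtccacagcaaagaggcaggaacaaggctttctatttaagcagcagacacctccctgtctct
Ces1g: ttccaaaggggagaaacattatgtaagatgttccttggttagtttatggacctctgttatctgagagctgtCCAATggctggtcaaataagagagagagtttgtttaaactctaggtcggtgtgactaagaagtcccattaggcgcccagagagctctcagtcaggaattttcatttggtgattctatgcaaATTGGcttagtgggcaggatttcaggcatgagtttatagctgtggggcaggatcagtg

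The marker genes of the tissue moved with the groups too. The 7 hepatocyte markers above 0 in all groups summed to 21313 RPKM in KO high-fat, 31745 in KO chow, 39965 in Flox high-fat and 44888 in Flox chow livers. The sums were thus lower in KO livers, but by a smaller factor than the Ces1 genes. Apoa2 and Apoa1 were the largest parts in every group, at 10668 and 4793 RPKM in KO high-fat livers. Cyp2e1, also among the reported IRE1 decay substrates above, was in the sum. Of 10 listed markers 9 were found, with Serpina1c at 0 in all groups but KO high fat. Cholangiocyte markers (8 of 8) summed to 121 RPKM in KO high-fat, 50.4 in KO chow, 29.6 in Flox high-fat and 28.2 in Flox chow livers. Most of each sum was Spp1, at 103 RPKM in KO high-fat, 39.4 in KO chow, 20.6 in Flox high-fat and 19.7 in Flox chow livers. Macrophage markers (8 of 8) ranged over the groups from 156 to 259 RPKM, stellate cell markers (6 of 6) from 94.8 to 158 RPKM and endothelial markers (6 of 6) from 60.6 to 69.5 RPKM. Adipocytes make Ces1d and Ces1f as well, and of 7 adipocyte markers Lep was listed at 0 in all groups, and Adipoq, Plin1, Retn and Cidea did not exceed 0.254 RPKM in any. The other adipocyte markers were Fabp4, between 9.59 and 11.5 RPKM, and Cfd, at 0.193 RPKM in KO high-fat, 0.257 in KO chow, 9.76 in Flox high-fat and 0.533 in Flox chow livers. In bulk tissue, fewer hepatocytes and less RNA per hepatocyte cannot be told apart, and the part of cell make-up in the Ces1 change was not tested.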

How the data were processed

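Liver RNA was sequenced in 8 libraries, 2 per group. The deposited values are RPKM, 1 per gene and group, per the file headers, and the name of each file matched the titles of 1 group. The submitters' processing notes name TopHat2 2.0.7, Cuffdiff 2.1.1 and mm10; their order, the annotation, the scaling and how libraries were combined are not given there. Depth is unknown: in a search of low values for steps of whole reads, 15.8% to 19.0% lay within 0.05 of a step.

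Repeated symbols were summed. A filter of 1 RPKM in any group left 10351 genes. A gene at 0 in a group entered no comparison with that group. The pseudocount of 1 RPKM makes changes of low genes look smaller. The code was checked on simulated data. The text names all members and, from each of 7 gene lists, genes among the 4 with the largest change on either diet, plus genes among the 8 most alike; some genes that this rule takes are not reported here. Members and lists were chosen with earlier results of these data known. Genes were placed with GENCODE M21 on GRCm38, the assembly of mm10, and promoters came from RefSeq; sequences were compared with Biopython 1.88. Alternatives were other pseudocounts, filters, thresholds, scalings and sums.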

Additional observations from a re-analysis of the deposited data

Results flagged for a closer look

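The results for 4 genes and the sum drew attention because the value on high fat was higher than on chow in KO livers and lower in Flox livers, with 1 pooled value per group and no test of the difference. The log2 change with high fat in KO minus that in Flox livers was 0.78 for Ces1c, 0.47 for Ces1e, 0.21 for Ces1f, 1.19 for Ces1g and 0.62 for the Ces1 sum. The directions held for the 4 genes and the sum under the scalings and pseudocounts tried, but some values lay close to 0. The change of Ces1f with high fat in KO livers was 0.01 in the main setting. That of Ces1e in Flox livers was -0.01 with equal sums without the 50 most abundant genes. In the main setting 8.51% of all genes showed the pattern, and that share was not worked out for the other settings.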

How the results depend on the processing

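All 6 members stayed past 2-fold in KO against Flox on both diets under every pseudocount, scaling and treatment of repeated symbols tried, and none changed direction in these comparisons. The log2 change of the Ces1 sum ranged from -2.55 to -2.21 on high fat and from -3.26 to -2.91 on chow, over leaving out each member, other scalings and pseudocounts, and a sum weighted by GENCODE transcript length that was added after the data were seen (the files hold no length, so the weighting by a length from the files was not run). The change of the sum with high fat ranged from 0.30 to 0.69 in KO and from -0.29 to -0.07 in Flox livers, and the difference between the KO changes from 0.38 to 0.82. Members past the threshold with high fat in KO livers were 1 in place of 0 with a pseudocount of 0.1 RPKM, with a median log2 ratio of 0, with equal sums without the 50 most abundant genes, and at 1.5-fold. In Flox livers 1 passed at 1.5-fold, and in the difference between the KO changes 0 passed with a pseudocount of 5 RPKM and 3 at 1.5-fold, in place of 1. Counts of all genes past the threshold moved with 3 settings, in the order pseudocount 0.1 RPKM, pseudocount 5 RPKM and 1.5-fold. They were 494, 156 and 1190 in place of 303 for KO against Flox on high fat, 263, 96 and 509 in place of 167 on chow, 305, 85 and 762 in place of 151 with high fat in KO, 124, 40 and 300 in place of 66 with high fat in Flox, and 240, 68 and 552 in place of 127 for the difference. With a median log2 ratio of 0, 186 genes rose and 93 fell in KO against Flox on high fat, in place of 111 and 192, while 132 rose and 47 fell with high fat in KO in place of 69 and 82, 29 and 36 in Flox in place of 22 and 44, and 112 and 30 in the difference in place of 68 and 59. That scaling was set on genes of at least 10 RPKM in every group and left the median of all genes above 0 in these comparisons. After it the median was 0.11 in KO against Flox on high fat and 0.13 with high fat in KO. No paired analysis was possible because each file holds 1 value per group and no library values. For the same reason no library could be left out. Unknown depth and the missing spread between libraries limit every difference.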
